A study of Mus musculus with 2 samples.

Results

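The 10 genes described here are the hormone, granule and serotonin synthesis genes of the enteroendocrine cells of the colon, out of 17829 genes in the count table. They were taken by name, with earlier results of these data known: Pyy, Gcg, Insl5, Sst, Sct, Tph1, Chga, Chgb, Pcsk1n and Iapp. They were followed in live, EpCAM-sorted colonic epithelial cells of C57BL/6 mice, profiled by droplet 3' single-cell RNA sequencing (10x Genomics, V2 chemistry). One library carried the genotype label Mettl14_WT and the other Mettl14_KO (below, WT and KO), where Mettl14 belongs to the methyltransferase that places m6A on RNA. The series text gives 2 weeks without saying from when, and the labels name neither the driver of the deletion nor the animals behind a library. With 1 library on each side nothing was tested: each difference is one between these libraries, and no variation between animals can be read from it.

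Enteroendocrine cells are scattered hormone-secreting cells of the gut epithelium that arise from crypt progenitors through a brief phase of Neurog3 expression. In the colon the main kinds are L cells, which make peptide YY, proglucagon peptides and insulin-like peptide 5, D cells, which make somatostatin, and enterochromaffin cells, which make serotonin with the enzyme tryptophan hydroxylase. All of them store their products in dense-core granules, whose matrix proteins are the chromogranins, and release them on stimulation by nutrients, microbial products or stretch.

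The WT library held 4210 cells with a median of 12094 unique transcript counts (UMIs), and the KO library 3653 cells with a median of 9119. The libraries shared 2 cell barcodes. Mettl14 itself was counted 632 times in WT and 201 times in KO (log2 KO over WT −0.975, 95% interval −1.21 to −0.744), and whether these 3' reads lie inside the deleted segment is not known here. In cluster 5 alone the 16 and 11 Mettl14 UMIs were too few to tell the libraries apart. Cluster 5 of the authors' 7 clusters held 99 WT cells with a median of 7897 UMIs and 151 KO cells with a median of 5492. It carried all 10 enteroendocrine markers that are not among the genes described (Neurod1, Fev, Scgn, Scg5, Scg3, Cpe, Rfx6, Pax6, Insm1 and Pcsk1), at a summed 1582 CPM (counts scaled to a library total of 1e6) in WT and 2328 CPM in KO, against 5.96 and 7.40 CPM in all other cells. At least 3 of the markers were seen in 92.9% of its WT cells and in 76.8% of its KO cells. The cells of cluster 5 are therefore called enteroendocrine-like, and the clusters were made from all genes, these included. Cells with UMIs of both sexes, which can be doublets or carry free RNA, made up 18.2% of cluster 5 in WT and 10.6% in KO.

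Cluster 5 took 2.35% of the WT cells (exact 95% interval 1.92 to 2.86%) and 4.13% of the KO cells (3.51 to 4.83%), a difference of 1.78 percentage points (0.981 to 2.60). All of the genes but Sct were counted almost wholly there, with at least 98.3% of a library's UMIs of each gene inside the cluster. Sct, which encodes secretin, had 44.6% of its WT UMIs and 30.9% of its KO UMIs in cluster 5. Intervals throughout cover counting error only.

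**Figure D1:**
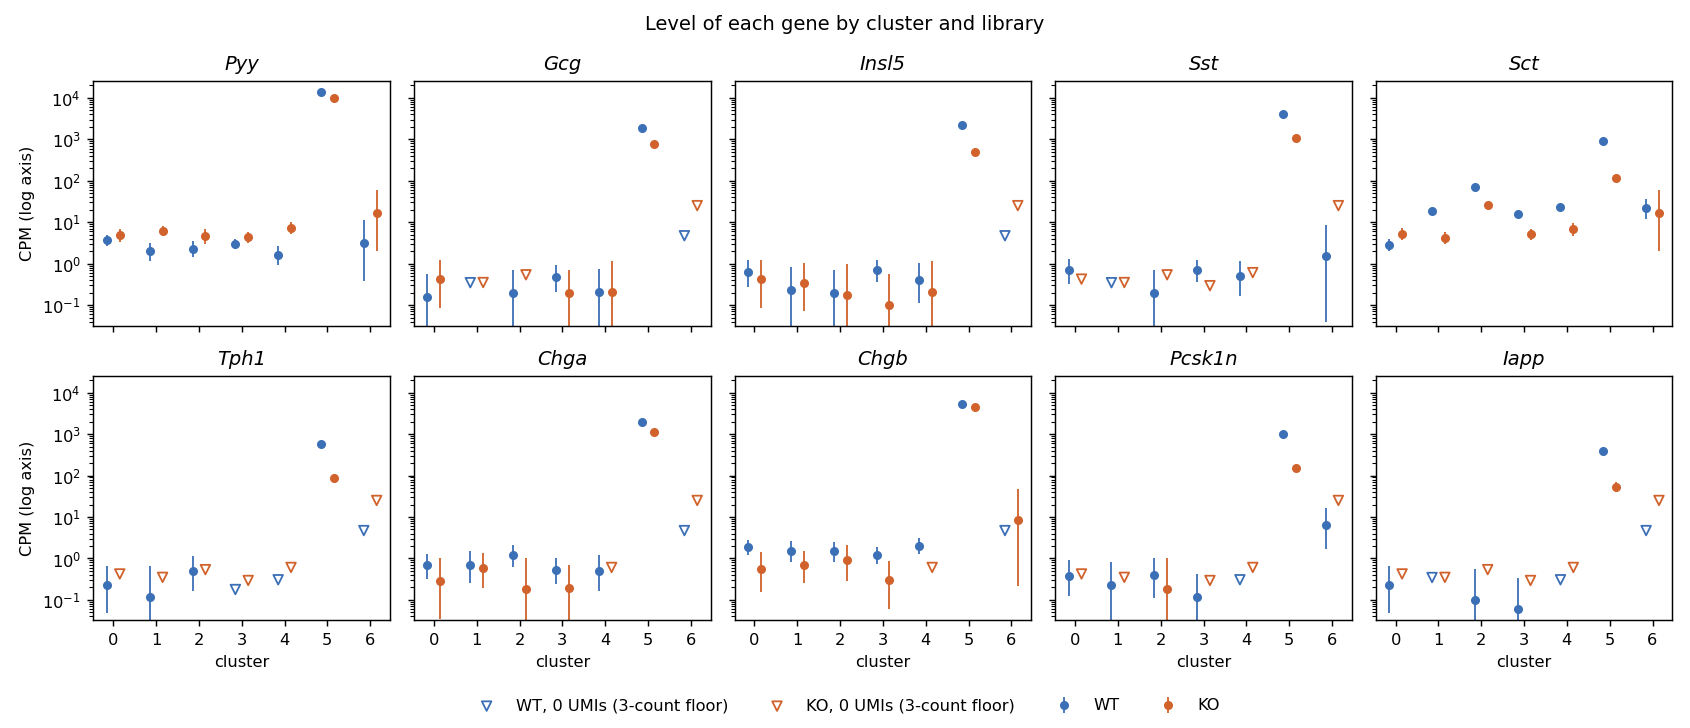
CPM on a log axis of each of the 10 genes (panels) in the authors' clusters 0 to 6, for the WT and the KO library, with 95% counting intervals as bars and open triangles at the floor of 3 counts where a library had 0. Cluster 5 is the highest point in every panel, and Sct is also raised in cluster 2.

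Within cluster 5, 8 of the 10 genes were lower in KO by at least 1.5-fold with an interval that excluded equal levels, none was higher, and Pyy and Chgb passed neither limit. By the same rule 9.9% of the 9372 genes measured in cluster 5 were lower in KO and 12.8% were higher. The median log2 ratio of KO to WT was −2.03 over the 10 genes and 0.00842 over all measured genes. Summed over all cells, 7 of the 10 were lower, none was higher, and Pyy, Chga and Chgb passed neither limit, beside 16.2% lower and 16.7% higher among 13334 genes. The median was −1.50 over the 10 genes and −0.042 over all measured genes. A sum over all cells or over cluster 5 cannot tell fewer cells of a type from less RNA per cell. The sum over all cells also takes in the larger share of cluster 5 in KO. Within cluster 5, cells with a Neurog3 UMI made up 20.2% in WT and 39.1% in KO. Without them, a split chosen after its values were seen, 7 of the 10 genes were lower in cluster 5 and none was higher. Chgb and Pyy changed sign between the scales. Chgb was at −0.26 in cluster 5 and 0.25 over all cells, and Pyy at −0.43 and 0.11.

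**Figure D2:**
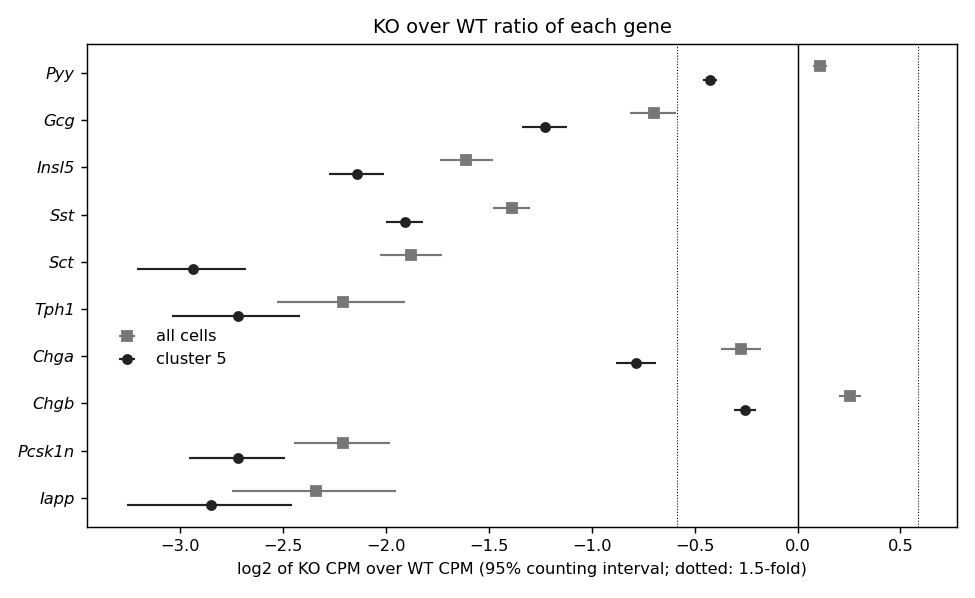
Log2 ratio of KO to WT CPM for each of the 10 genes, in cluster 5 (circles) and over all cells (squares), with 95% counting intervals as bars and the 1.5-fold limits dotted. All 10 genes lie below 0 in cluster 5, from −2.94 for Sct to −0.257 for Chgb.

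The promoters of these genes bear on the chromogranins and Sst, whose starts are known for cyclic AMP response elements. All 10 genes matched RefSeq promoter windows on GRCm38.p6, 13 in all, each of 300 bases with 250 before the start. The palindrome TGACGTCA was found in the windows of Sst, with its first base 48 before the start, and of Chgb, 72 before it. Its shorter part TGACG, on either strand, was found without the palindrome in Chga, 44 before the start, and in both Tph1 windows. The other 6 genes held neither in their windows. Of 32851 mouse windows of this length 1.79% hold the palindrome and 20.8% hold TGACG, a count that includes the palindromes. The 150 bases before the start are shown for the 4 genes, 5′ to 3′ on the gene's strand, with matches in capitals (CGTCA is TGACG on the other strand). The remaining match in the second Tph1 window lies farther upstream, 248 before the start.
Sst, chr16:23890845-23890994, minus strand: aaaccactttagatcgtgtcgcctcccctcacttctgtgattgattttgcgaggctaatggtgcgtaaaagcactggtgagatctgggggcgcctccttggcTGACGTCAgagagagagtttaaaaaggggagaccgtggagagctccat
Chgb, chr2:132781492-132781641, plus strand: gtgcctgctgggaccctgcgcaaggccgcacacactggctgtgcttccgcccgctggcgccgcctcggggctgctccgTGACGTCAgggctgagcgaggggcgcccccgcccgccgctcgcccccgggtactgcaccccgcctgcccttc
Chga, chr12:102554791-102554940, plus strand: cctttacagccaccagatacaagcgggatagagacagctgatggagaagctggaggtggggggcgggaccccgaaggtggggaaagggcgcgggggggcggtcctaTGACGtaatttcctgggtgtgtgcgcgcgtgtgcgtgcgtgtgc
Tph1, window 1, chr7:46672538-46672687, minus strand: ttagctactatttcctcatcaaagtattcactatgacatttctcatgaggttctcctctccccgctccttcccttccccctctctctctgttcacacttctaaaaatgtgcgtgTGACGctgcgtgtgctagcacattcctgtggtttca
Tph1, window 2, chr7:46667378-46667527, minus strand: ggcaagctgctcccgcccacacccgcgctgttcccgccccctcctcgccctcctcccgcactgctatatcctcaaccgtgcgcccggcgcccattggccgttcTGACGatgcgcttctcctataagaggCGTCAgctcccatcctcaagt
The genes with the palindrome differed in ratio, with Sst at −1.91 and Chgb at −0.26 in cluster 5. Positions are counted from the RefSeq start, and the gene bounds given with each gene are those of GENCODE vM21, which begin farther upstream for Sst and Chgb.

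Of the L cell products, Pyy was within 1.5-fold in the summed counts, Insl5 was lower in KO, and Gcg was lower in KO but rested on few cells. Pyy, which encodes the satiety peptide YY (chromosome 11, 102106676 to 102107832, minus strand, GRCm38), gave 17159 UMIs in WT cluster 5 and 11480 in KO, or 13539.8 and 10064 CPM. Its log2 ratio was −0.43 (−0.46 to −0.39), under 1.5-fold. Other choices took it past that limit as lower in KO, at −0.69 as a mean of per-cell CPM, −0.75 without cells with UMIs of both sexes, −0.72 with cells thinned to 3000 UMIs and −1.18 among male cells, and 9 genes were then lower. It was detected in 28.3% of the cluster's WT cells and 27.2% of its KO cells. Outside cluster 5, at lower depth in KO (median 9244.5 UMIs, against 12126 in WT), Pyy was seen in 2.77% of the WT cells and 5.28% of the KO cells. There the 194 KO UMIs lay in 185 cells with no more than 3 each, and the 155 WT UMIs in 114 cells, 1 of which held 23.

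A cell was counted as bearing a product when it held at least 3 UMIs of the gene and these made up at least 0.1% of its UMIs. The limit drops cells with a low level of the gene, so that gene's level within bearing cells is given as a description only. By this rule 24 WT cells (24.2%) and 31 KO cells (20.5%) of cluster 5 bore Pyy, a difference of −3.71 points (−15.1 to 7.17). In these cells Pyy reached a large part of all transcripts, with a lowest, median and highest share of 0.209%, 4.97% and 17.3% of a cell's UMIs in WT and 0.111%, 2.41% and 19.4% in KO. The ranges of the libraries overlapped almost completely. No cell outside cluster 5 bore Pyy.

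**Figure D3:**
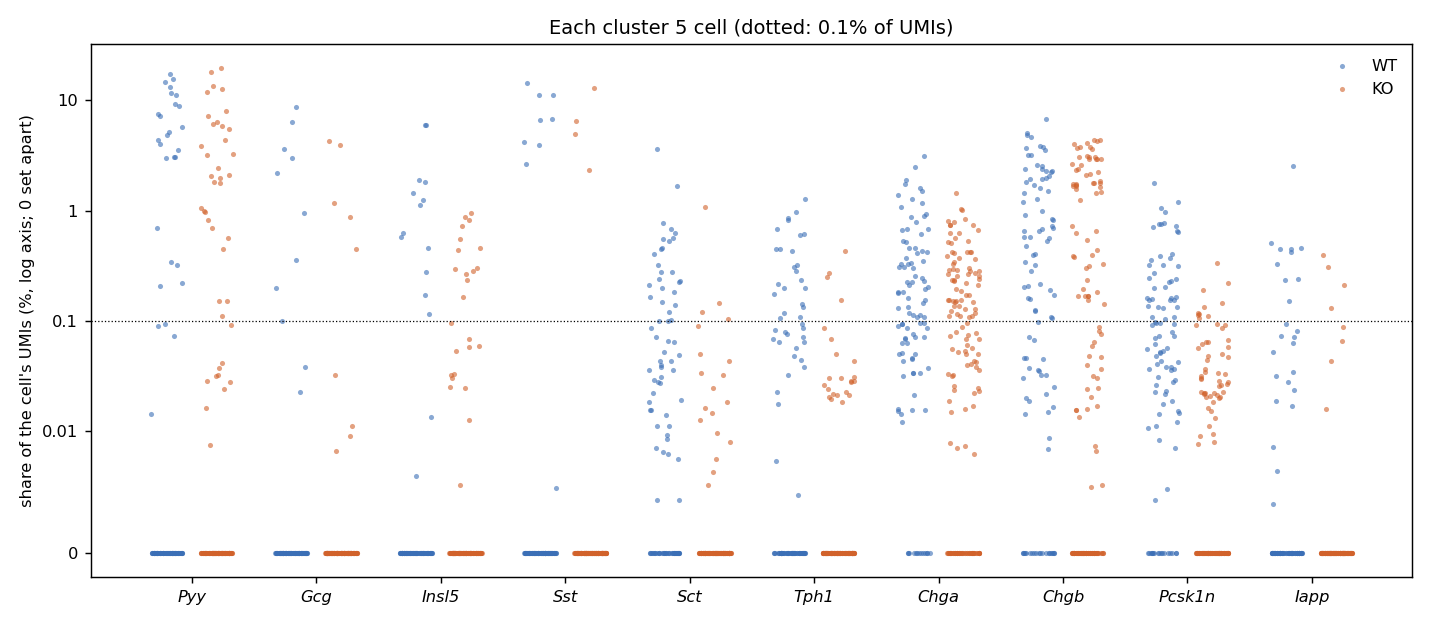
Share of each cluster 5 cell's UMIs taken by each gene (percent, log axis, cells at 0 set apart below), with 1 point per cell for the 99 WT and 151 KO cells. Sst, Pyy and Gcg are high in few cells and at 0 in most, whereas Chga and Chgb are spread over most WT cells.

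Insl5, which encodes the appetite-raising insulin-like peptide 5 (chromosome 4, 103017872 to 103026842, minus strand), gave 2739 UMIs in WT cluster 5 and 558 in KO, or 2161 and 489 CPM. The log2 ratio was −2.14 (−2.28 to −2.01). The share of cells with an Insl5 UMI was 15.2% in WT and 16.6% in KO. Bearing cells were 13.1% in WT and 8.61% in KO, a difference of −4.52 points (−13.7 to 3.69). The 13 bearing cells of WT gave 0.115%, 1.12% and 5.96% of their UMIs to Insl5 (lowest, median, highest) and the 13 of KO 0.164%, 0.439% and 0.949%. Within bearing cells the log2 ratio was −1.63 (−1.77 to −1.50). The 5 highest WT cells held 79.5% of the WT UMIs, and without the 5 highest cells of each library the ratio in cluster 5 was −1.07. Among male cells it was −3.45.

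Gcg, which encodes proglucagon, the precursor of GLP-1 (chromosome 2, 62474530 to 62483650, minus strand), gave 2315 UMIs in WT cluster 5 and 890 in KO, or 1827 and 780.3 CPM, with a log2 ratio of −1.23 (−1.34 to −1.12). These UMIs came from few cells: 9 WT cells and 5 KO cells bore Gcg, a difference of −5.78 points (−13.6 to 0.666). Within bearing cells the level was slightly higher in KO, at 0.26 (0.147 to 0.373). The direction of the whole-cluster ratio depended on which cells were kept. Among the 45 WT and 79 KO cells with at most 10% mitochondrial UMIs it was 0.73, with 5 bearing cells on each side, and among male cells it was −4.15. Without the 5 highest cells of each library it was −5.85.

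Of the D cell products, Sst was concentrated in a handful of cells in both libraries. Sst, which encodes somatostatin, the general inhibitor of gut hormone release (chromosome 16, 23889573 to 23890958, minus strand), gave 5087 UMIs in WT cluster 5 and 1220 in KO, or 4014 and 1069.6 CPM. The log2 ratio was −1.91 (−2.0 to −1.82). There were 8 bearing cells in WT (8.08%) and 4 in KO (2.65%), a difference of −5.43 points (−12.9 to 0.606). Each was rich in the transcript, which took 2.61%, 6.71% and 14.4% of a WT cell's UMIs (lowest, median, highest) and 2.31%, 5.70% and 12.9% of a KO cell's. The 4 KO cells held all 1220 KO UMIs, and 1 of them held 647. At a mitochondrial share of at most 10% the ratio was −0.50, within the 1.5-fold limit, and among male cells it was −1.17. Outside cluster 5, 29 WT cells held 1 Sst UMI each, and 0 of 3502 KO cells held any, which allows a share of up to 0.105%.

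Iapp, which encodes islet amyloid polypeptide, a peptide also made by some gut endocrine cells (chromosome 6, 142298423 to 142303961, plus strand), gave 489 UMIs in WT cluster 5 and 61 in KO, or 386 and 53.5 CPM. The log2 ratio was −2.85 (−3.26 to −2.46). It was borne by 10 WT cells (10.1%) and 4 KO cells (2.65%), a difference of −7.45 points (−15.4 to −0.935). Within bearing cells the ratio was −0.64 (−1.12 to −0.196). The 5 highest cells held 63.4% of the WT UMIs and 88.5% of the KO UMIs. Without the 5 highest cells of each library the ratio was −4.57, and it was −2.08 among cells of at most 10% mitochondrial UMIs.

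Of the 7 products counted in this way, the largest gaps in the share of bearing cells were in Tph1, of enterochromaffin cells, and in Sct. Of the Sct-bearing cells, 18 of 27 in WT and 0 of 3 in KO also bore Tph1, and 7 in WT and 0 in KO bore Pyy. Tph1, the rate-limiting enzyme of gut serotonin synthesis (chromosome 7, 46644641 to 46672537, minus strand), gave 732 UMIs in WT cluster 5 and 100 in KO, or 578 and 87.7 CPM. The log2 ratio was −2.72 (−3.04 to −2.42). A UMI was seen in 41.4% of the WT cells and 15.2% of the KO cells. Bearing cells numbered 23 in WT (23.2%) and 4 in KO (2.65%), a difference of −20.6 points (−30.3 to −11.7). With every cell thinned to 3000 UMIs the difference was −22.1 points (−32.0 to −12.9). Of the cells with a Tph1 UMI, 33 of 41 in WT and 4 of 23 in KO held 5 or more, so most KO cells with the transcript lay under the limit. Among the bearing cells the ratio was −0.06 (−0.447 to 0.303), with 4 KO cells. The ratio in cluster 5 ran from −4.05, without the 5 highest cells of each library, to −2.22, among cells of at most 10% mitochondrial UMIs.

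Sct, which encodes secretin, the hormone of bicarbonate secretion (chromosome 7, 141278330 to 141279133, minus strand), gave 1149 UMIs in WT cluster 5 and 135 in KO, or 907 and 118 CPM. Its log2 ratio of −2.94 (−3.21 to −2.68) was the lowest of the 10 genes. A UMI was present in 59.6% of the WT cells and 12.6% of the KO cells of the cluster. Bearing cells numbered 27 in WT (27.3%) and 3 in KO (1.99%), a difference of −25.3 points (−35.3 to −16.0). One KO cell held 81 of the 135 KO UMIs. Among male cells, with 3 KO UMIs, the ratio was −6.30 (−8.58 to −4.74), and without the 5 highest cells of each library it was −4.57.

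Sct was also lower in KO in most clusters outside the enteroendocrine-like one. In cluster 2 it was counted 719 times in WT and 141 times in KO, or 71.7 CPM (66.6 to 77.2) and 25.3 CPM (21.3 to 29.8). With cells thinned to 3000 UMIs, 17.3% of the WT cells of cluster 2 held a Sct UMI (14.5 to 20.3%) and 6.72% of the KO cells (4.70 to 9.26%). Without thinning the shares were 44.9% (41.2 to 48.6%) and 15% (12.0 to 18.4%). Clusters 1 and 2 were those with the highest summed goblet markers. Cluster 4 was at 23.1 and 6.88 CPM, cluster 1 at 18.5 and 4.20 CPM and cluster 3 at 16.0 and 5.10 CPM. Their WT intervals overlapped in part, and cluster 6 (22.0 CPM in WT, 12.0 to 36.9) could not be set apart from them. In cluster 4 the 5 highest cells held 50.2% of the WT UMIs. With thinned cells, a Sct UMI was seen there in 3.13% of the WT cells (1.92 to 4.79%) and 1.67% of the KO cells (0.722 to 3.26%), which overlapped. Cluster 0 went the other way, with 2.85 CPM in WT (2.0 to 3.92) and 5.21 CPM in KO (3.67 to 7.18), from 37 UMIs each. Its ratio was 0.87 (0.175 to 1.57), higher by the 1.5-fold rule. In KO the intervals of clusters 0, 1, 3, 4 and 6 overlapped, that of cluster 6 resting on 2 UMIs. Over all cells outside cluster 5 the ratio was −1.55 (−1.73 to −1.37). Cells bearing Sct outside cluster 5 numbered 8 in WT and 1 in KO, and no other product was borne outside the cluster.

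**Figure D4:**
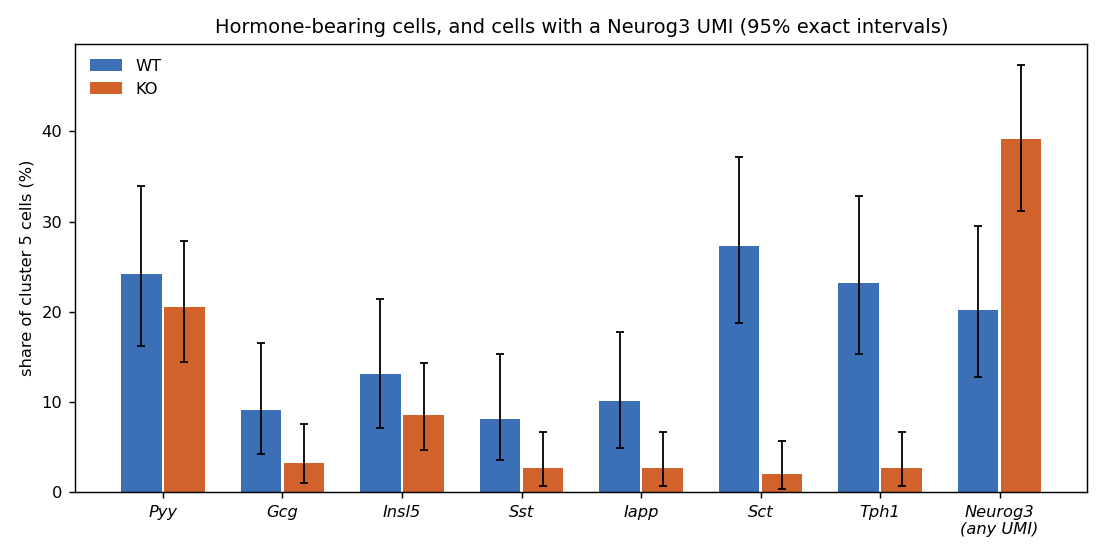
Share of cluster 5 cells bearing each of the 7 products (percent, with exact 95% intervals as bars), for 99 WT and 151 KO cells. The intervals of WT and KO lie apart for Sct and Tph1 and overlap for the other 5 products.

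The granule genes differed from each other in their ratios. Chga, which encodes chromogranin A (chromosome 12, 102554969 to 102565028, plus strand), gave 2453 UMIs in WT cluster 5 and 1280 in KO, or 1936 and 1122 CPM. Its log2 ratio was −0.79 (−0.885 to −0.688). At least 1 UMI was found in 86.9% of the WT cells and 67.5% of the KO cells, the widest reach of the 10 genes in both libraries. Among cells of at most 10% mitochondrial UMIs the ratio was −0.08 (−0.214 to 0.0464), and among cells without a Neurog3 UMI it was −0.26. Chgb, which encodes chromogranin B (chromosome 2, 132781278 to 132795079, plus strand), gave 6739 and 5075 UMIs, or 5318 and 4449 CPM, in 79.8% and 53.6% of the cells. Its ratio of −0.26 (−0.31 to −0.20) was under 1.5-fold, and it was 0.62 among cells of at most 10% mitochondrial UMIs and 0.42 among cells without a Neurog3 UMI. A smaller share of the KO cells thus held Chgb, from 79 cells in WT and 81 in KO, and the summed level was within 1.5-fold of WT.

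Pcsk1n, which encodes proSAAS, an inhibitor of prohormone convertase 1 (chromosome X, 7919822 to 7924410, plus strand), was lower in KO by much more than either chromogranin. It gave 1256 UMIs in WT cluster 5 and 171 in KO, or 991 and 149.9 CPM, with a log2 ratio of −2.72 (−2.96 to −2.49). A UMI was seen in 82.8% of the WT cells and 37.1% of the KO cells, and no KO cell held more than 11. Its UMIs were spread over cells, with 21.2% in the 5 highest WT cells and 25.1% in the 5 highest KO cells. Under the alternatives run, the ratio in cluster 5 lay between −3.08 and −1.98.

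Pcsk1n was also lower when cells bearing the same product were compared. In the Pyy-bearing cells, 24 in WT and 31 in KO, it was at 1052 CPM in WT and 232 CPM in KO (−2.18, −2.59 to −1.79), and it was found in 23 WT cells and 19 KO cells. In the same cells Chgb was higher in KO, at 1076 against 366 CPM (1.55, 1.24 to 1.87). The cell medians were closer, at 468 CPM in KO and 324 CPM in WT, and 5 of the 31 KO cells held 184 of the 297 KO UMIs. Without the 5 highest cells of each library the Chgb ratio was 1.14 (0.661 to 1.62). Chga was at 1072 CPM in KO and 714 CPM in WT (0.59, 0.333 to 0.842). Sct was at 79.7 CPM in the Pyy-bearing KO cells and 1614 CPM in the WT ones (−4.34, −5.03 to −3.73). A single WT cell held 394 of the 520 WT UMIs, and without the highest cell of each library the ratio was −2.77 (−3.62 to −2.01). In the Tph1-bearing cells, 23 in WT and 4 in KO, Chga was at −0.14 (−0.401 to 0.102) and Chgb at −0.03 (−0.184 to 0.113), whereas Pcsk1n was at −2.49 (−3.37 to −1.74), from 14 KO UMIs, and at −3.72 without the highest cell of each library. In those cells Sct gave 477 UMIs in WT and 3 in KO (−4.31, −6.59 to −2.75), or −5.50 without the highest cells.

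More of the enteroendocrine-like cells bore no product in KO, while hormone-bearing cells took a like share of each library. Of the 99 WT cells 49 (49.5%) bore at least 1 of the 7 products (Pyy, Gcg, Insl5, Sst, Sct, Iapp and Tph1), and of the 151 KO cells 41 (27.2%), a difference of −22.3 points (−34.7 to −9.48). As a share of all cells of the library they made up 1.16% in WT (0.862 to 1.54%) and 1.12% in KO (0.807 to 1.52%), a difference of −0.0415 points (−0.529 to 0.457). Their make-up differed. Cells bearing Pyy, Gcg or Insl5 without Sst or Tph1 were 17 of the 49 in WT (34.7%, 21.7 to 49.6%) and 30 of the 41 in KO (73.2%, 57.1 to 85.8%). Tph1-bearing cells were 46.9% of the hormone-bearing WT cells (32.5 to 61.7%) and 9.76% of the KO ones (2.72 to 23.1%).

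Neurog3, the transcription factor that starts the enteroendocrine fate, marked the other side of this difference. A Neurog3 UMI was found in 20 of the 99 WT cells (20.2%, 12.8 to 29.5%) and in 59 of the 151 KO cells (39.1%, 31.2 to 47.3%), and after thinning to 3000 UMIs in 17.5% and 34.9%. Outside cluster 5 the shares were 0.0973% and 0.885%. No cell of cluster 5 with a Neurog3 UMI bore any of the 7 products in either library. Neurog3-positive cells took 0.475% of the WT library and 1.62% of the KO library, and the share of cluster 5 without them was 1.88% and 2.52%. Among cells without Neurog3, 62.0% in WT (50.4 to 72.7%) and 44.6% in KO (34.2 to 55.3%) bore a product. Pyy was then borne by 30.4% and 33.7% of the cells, Tph1 by 29.1% (19.4 to 40.4%) and 4.35% (1.2 to 10.8%), and Sct by 34.2% and 3.26%. The summed Pyy ratio turned to 0.12 among these cells, whereas Pcsk1n was at 1151 CPM in WT and 246 CPM in KO. This split was chosen after its values were seen.

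Cells with several products were counted next. At least 2 of the 7 were borne by 42 WT cells (42.4%, 32.5 to 52.8%) and 21 KO cells (13.9%, 8.82 to 20.5%), a difference of −28.5 points (−40.0 to −16.7). At least 3 were borne by 19 WT cells and 2 KO cells. Of the 21 possible pairs, 13 were seen in at least 1 WT cell and 7 in at least 1 KO cell. Gcg, Sst, Sct, Iapp and Tph1 were borne by only 5, 4, 3, 4 and 4 KO cells. Were products borne independently, the product of the shares would give 0.0795 to 0.132 KO cells per pair of these. In WT it would give 0.727 to 6.27 cells. The pair counts thus also reflect how few KO cells bore each product. A large part of the gap involved Sct. Without Sct, at least 2 products were borne by 27.3% of the WT cells and 13.9% of the KO cells. With Sct kept and the limit at 1% in place of 0.1% of a cell's UMIs, the shares were 15.2% and 1.32%.

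The L cell products were found together in both libraries. All 13 WT cells bearing Insl5 also bore Pyy, as did 12 of the 13 in KO. Of the Gcg-bearing cells, 8 of 9 in WT and 5 of 5 in KO bore Pyy. Gcg and Insl5 shared 7 cells in WT and 1 in KO. Cells bearing Pyy and none of the other 6 products numbered 1 in WT and 13 in KO. Somatostatin cells overlapped with Pyy and Iapp. All 8 WT cells bearing Sst bore Pyy, as did 2 of the 4 in KO. Sst and Iapp shared 5 cells in WT and 3 in KO. Sst was never borne with Gcg or Insl5. The product of the shares gives only 0.727 and 1.05 such cells in WT and 0.132 and 0.344 in KO. With so few cells, an absence of overlap cannot be told from independence.

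Tph1 was never borne together with Pyy, Gcg, Insl5 or Sst. There were 0 such cells among 99 in WT and 0 among 151 in KO, which allows shares of up to 3.66% and 2.41%. In the order named, the product of the shares gives 5.58, 2.09, 3.02 and 1.86 cells in WT. In KO it gives 0.821, 0.132, 0.344 and 0.106 cells. With 4 Tph1-bearing KO cells, the absence of overlap in KO cannot be told from independence. The partner of Tph1 in WT was Sct. The pair Sct and Tph1 was borne by 18 WT cells (18.2%, 11.1 to 27.2%), 5 of which also bore Iapp. It was borne by 0 KO cells, which allows up to 2.41%. The difference was −18.2 points (−27.2 to −10.7). For this pair the product of the shares gives 6.27 cells in WT and 0.0795 in KO. Of the 4 Tph1-bearing KO cells, 3 bore Tph1 alone and 1 bore Iapp with it. The 3 KO cells bearing Sct bore nothing else.

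**Figure D5:**
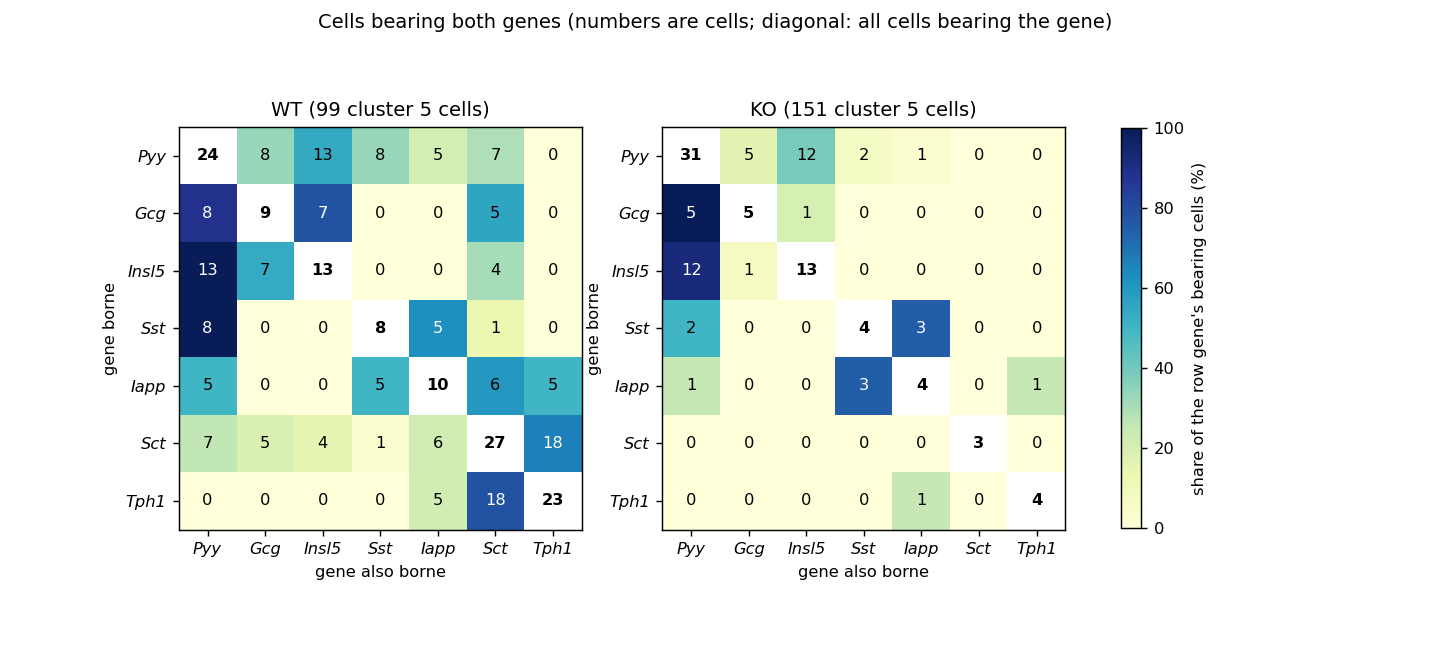
Number of cluster 5 cells bearing both products of each pair, with all cells bearing a product on the diagonal, for the 99 WT and the 151 KO cells. Colour gives the pair's cells as a percent of the cells bearing the row's product. Pyy with Insl5 fills cells in both libraries (13 and 12), and Sct with Tph1 fills 18 cells in WT and none in KO.

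Genes whose counts followed those of a product across cluster 5 cells were ranked by Pearson r of log1p(CPM), averaged over the libraries, among 7077 genes seen in at least 10% of the cells of each. The cells of a library share its depth and its mixture of cell kinds, so these values describe who is found with whom. Pyy went with Isl1, a LIM homeobox factor (r = 0.87 over 99 WT cells and 0.63 over 151 KO cells), Insl5 (0.70 and 0.73), Etv1 (0.75 and 0.61) and the granule protein gene Scg2 (0.68 and 0.68). Insl5 went with Pyy, Scg2 (0.59 and 0.63) and Isl1 (0.58 and 0.53). Gcg went with Pyy, Insl5, Scg2 and Etv1. Tph1 went with Slc18a1, the vesicular monoamine transporter that loads serotonin into granules (0.78 in WT and 0.45 in KO), then with Chgb (0.65 and 0.51), Slc38a11 and Chga. For Sst the first was Rbp4, a retinol carrier, at 0.67 in WT and 0.099 in KO, followed by Isl1, Car8 and Dbpht2. For Sct the first were Id3 (0.65 in WT and 0.27 in KO) and Id2 (0.57 and 0.26), inhibitors of helix-loop-helix factors, then Car8 and Pcsk1n (0.59 and 0.16). Chga and Chgb followed each other at 0.85 in WT and 0.77 in KO.

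Other genes of hormone production were read from lists in cluster 5, beside the 9.9% lower and 12.8% higher among all measured genes. Of 9 other gut hormones and peptides measured, 6 were lower in KO, 1 was higher and 2 were neither. Cck, the gallbladder-contracting hormone, was at 167 CPM in WT and 148 CPM in KO (−0.17, −0.475 to 0.123). Ghrl, which encodes ghrelin, was at 267 and 151 CPM (−0.83, −1.10 to −0.558). The 5 highest cells of each library held 96.8% of its WT UMIs and 97.7% of its KO UMIs. Tac1, the substance P precursor of some enterochromaffin cells, was at 149 and 28.1 CPM (−2.41, −3.00 to −1.86). Nts, Ppy and Cartpt were not counted in KO cluster 5. With 0 set to a floor of 3 counts over the cluster, neurotensin (Nts, 422 UMIs in WT) was 127-fold lower. Pancreatic polypeptide (Ppy, 157 UMIs) was 47.1-fold and Cartpt (116 UMIs) 34.8-fold lower. The interval bounds nearest to 0 were log2 ratios of −6.68, −5.24 and −4.8. The Nts and Ppy UMIs lay in 2.02% of the WT cells each and those of Cartpt in 7.07%, so each rests on few cells.

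Of 18 other granule protein and prohormone processing genes, 2 were higher in KO, 5 were lower and 11 were neither, with a median of −0.13. Scg5, the chaperone of prohormone convertase 2, was at 157 CPM in WT and 159 CPM in KO, and Cpe, the carboxypeptidase that trims prohormones, at 244 and 206 CPM. Pam, the enzyme that amidates peptides such as Pyy, was at −0.36 (−0.619 to −0.11), under 1.5-fold. The lowest bounds were those of Resp18, an endocrine granule protein (224 and 30.7 CPM, −2.87, −3.42 to −2.36), Qpct, which cyclises the ends of peptides (−1.72), and Peg3 (−1.23). Cpn1, a carboxypeptidase subunit, was higher (22.1 and 58.7 CPM, 1.41, 0.754 to 2.10). The vesicle release list gave 1 higher, 5 lower and 11 neither of 17 measured, with a median of −0.13. Syp, a synaptic vesicle membrane protein, was at −1.37 (−2.29 to −0.524), the fusion protein Snap25 at −0.66 (−1.04 to −0.281) and the motor Kif1a at −1.99 (−3.74 to −0.549). Rab3c and Rab3d, small GTPases of granules, were at 0.43 and 0.15, and Rimbp2 was at 0.30, each under 1.5-fold.

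Serotonin handling beyond Tph1 gave 1 higher, 3 lower and 6 neither of 10 measured genes. Ddc, the next enzyme after Tph1, was at 443 CPM in WT and 458 CPM in KO (0.05, −0.127 to 0.222) and was found in 90.9% and 85.4% of the cells. The transporter Slc18a1 was lower, at 153 and 51.7 CPM (−1.57, −2.01 to −1.14). Of the genes that make and recycle the Tph1 cofactor tetrahydrobiopterin, Gch1 was at −1.02 (−1.46 to −0.607) and Qdpr at −0.96 (−1.34 to −0.587), both lower, whereas Spr was higher at 0.66 (0.284 to 1.04). Pcbd1 was at 0.05 and Aldh2, an aldehyde dehydrogenase, at −0.47.

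Sensors gave 4 higher, 4 lower and 9 neither of 17 measured. Ffar2, a receptor for short-chain fatty acids, was higher in KO (315 UMIs in WT and 649 in KO, 1.19, 0.998 to 1.39). Ffar4, a receptor for long-chain fatty acids (10.3 and 50.8 CPM, 2.31, 1.42 to 3.30), and the somatostatin receptor Sstr1 (1.39, 0.448 to 2.41) were also higher. Most Ffar2 and Ffar4 UMIs lay in other clusters, with 8.43% and 1.55% in cluster 5, against 70.1% for Sstr1. Olfr78, an olfactory receptor for short-chain fatty acids, was lower (76 and 20 UMIs, −1.77, −2.56 to −1.05), with 89.5% of its WT UMIs in 5 cells. The channel genes Cacna1a and Scn3a were at −0.24 and 0.20. Of the listed receptor genes for these hormones only 1, Ramp1, which encodes a receptor accessory protein, was measured in cluster 5. It was higher there at 1.34 (1.07 to 1.61), and 1.69% of all its UMIs lay in the cluster. Among the transcription factors of the lineage 8 of 21 measured were higher, 4 were lower and 9 were neither, with a median of 0.32. Neurog3 was at 137 CPM in WT and 474 CPM in KO (1.79, 1.54 to 2.04), Neurod1 at 1.05, Insm1 at 1.21 and Sox4 at 0.95, whereas Mlxipl, a sugar-responsive factor, was at −1.74.

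Summed markers of other cell types in cluster 5 were lower in KO for some types and higher for others. The 7 tuft markers in the files were all detected in WT, at a summed 30.8 CPM, and 3 were in KO, at 5.26 CPM, with Dclk1, Trpm5, Pou2f3 and Sh2d6 at 0. Stromal markers were at 97.1 and 16.7 CPM, with Col1a2, Dcn, Lum and Pdgfra at 0 in both. The 8 goblet markers were at 6605 and 7120.5 CPM and the 8 colonocyte markers at 483 and 229 CPM. Cycling markers were at 733 and 477 CPM and stem markers at 896 and 636 CPM. Immune markers were at 115 and 236 CPM, with Cd3e at 0 in both. Of the 11 pancreatic acinar markers 7 were detected in WT cluster 5 and 2 in KO, at 159 and 254 CPM. Outside cluster 5 they were at 1613 CPM in WT and 141 CPM in KO, with at least 3 of them in 115 WT cells and 2 KO cells. Enteric neuron and glia markers were at 89.2 and 121 CPM, with Sox10 and S100b at 0 in both, and endothelial markers at 22.9 and 13.2 CPM. Of the 5 pancreatic islet markers in the files, Ppy carried most of the 133 CPM in WT and all were at 0 in KO. Female cells were 31.3% of cluster 5 in WT and 49.7% in KO. Within female cells the ratios of Tph1, Sct and Pcsk1n were −3.79, −2.95 and −2.84, and within male cells −2.55, −6.30 and −2.64. The part of the other markers in the results was not tested.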

How the data were processed

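Live EpCAM-positive colonic epithelial cells were profiled with 10x Genomics 3' V2 chemistry, per the labels' protocols. The authors deposited whole-number UMI counts for every gene in each retained cell, with a second table of library and cluster per cell. The submitters' processing notes name bcl2fastq, Cell Ranger and the mm10 build and give no version. The filters, clustering and treatment of doublets are not given in the sources used here, and no doublets were removed.

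Counts were summed per library, or per library and cluster, and scaled to CPM. Ratios carry exact conditional binomial 95% intervals, CPM exact Poisson and shares exact Clopper-Pearson intervals, and differences of shares a Newcombe-type interval. With 1 library per genotype no test was run. Measured genes had 50 or more UMIs in the libraries together, or 20 or more in cluster 5. Where a library had 0 counts, a floor of 3 counts was used. A cell bore a product with at least 3 UMIs and 0.1% of its UMIs. Female cells held at least 3 Xist UMIs and no Y-linked UMI, and male cells the reverse, with no Xist UMI.

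The members and the 7 gene lists were chosen with earlier results of these data known. All 10 members are named. From each list up to 4 genes were named by the interval bound nearest to 0 in cluster 5 and up to 3 by level, and up to 4 genes per hormone by correlation. Predicted genes were not named. A correlated gene and a marker are not reported here. Promoter sequences are from RefSeq, gene positions from GENCODE vM21, counted from 1.

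Alternatives changed the scaling (including TMM factors of edgeR 4.0.16 in R 4.3.3), the weight and choice of cells, depth and thresholds. The split by Neurog3, the count without Sct and the bearing-cell ratios without the highest cells were added after seeing the data. On simulated cluster 5 counts for 9372 genes, 96.4% of intervals covered the true ratio. The right direction with an interval excluding equal levels was found for 78.0% of 2-fold and 99.0% of 4-fold differences. These counts were drawn with Poisson error only, as the intervals assume. The simulation therefore cannot show how the intervals fare where a gene's UMIs lie in few cells. Python 3.11.15, numpy 2.4.6, scipy 1.17.1, pandas 2.3.3 and matplotlib 3.10.9 were used.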

Additional observations from a re-analysis of the deposited data

Results flagged for a closer look

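Pyy differed in direction between cluster 5 and the other cells. Its log2 ratio of KO to WT was −0.428 in cluster 5 and 1.02 outside it, where 155 UMIs in WT and 194 in KO were counted at 2.63 and 5.32 CPM. The difference between these ratios was not tested, since there is 1 library per genotype. Outside cluster 5 the KO level lay between 4.32 and 7.28 CPM in clusters 0 to 4, and the WT level between 1.63 and 3.62 CPM. Per 1000 Pyy UMIs inside cluster 5 there were 9.03 outside it in WT and 16.9 in KO. For Sst these values were 5.70 and 0, and for Chgb 13.7 and 3.74.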

How the results depend on the processing

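No paired analysis was possible because each genotype has 1 library. Over all cells, 53 of 100 recomputed ratios of the 10 genes stayed within the counting interval, 46 moved outside it and 1, past the 1.5-fold limit as reported, changed direction. In cluster 5 these numbers were 54, 65 and 1 of 120, and 115 of the 120 ratios were below 0. That change of direction was of Gcg among cells of at most 10% mitochondrial UMIs, at 0.551 over all cells and 0.729 in cluster 5. Ratios under 1.5-fold also changed sign. Over all cells these were Pyy at −0.553 with at most 10% mitochondrial UMIs and −0.476 in male cells, and Chga at 0.255 in female cells. In cluster 5 they were Chgb at 0.62 with at most 10% mitochondrial UMIs, 0.417 without Neurog3-positive cells and 0.0693 in cells with 3 markers, and Pyy at 0.124 without Neurog3-positive cells. With at most 10% mitochondrial UMIs, 5 genes were lower in KO in cluster 5 and 2 were higher, in place of 8 and 0. Among female cells over all clusters 1 gene, Chgb at 0.758, was higher in place of 0. The difference in the share of cells in cluster 5 was 0.642 points (−0.0231 to 1.32) without Neurog3-positive cells, in place of 1.78. The difference in cells bearing at least 2 products was −13.8 points at 1% of a cell's UMIs and −13.4 points without Sct, in place of −28.5. The cause of each was not tested beyond the cells or genes left out. The other scalings, TMM included, moved no count of genes by over 1.5 times. Few cells limit these values more than UMIs do: Sct rests on 3 bearing KO cells, and Gcg, Sst, Iapp and Tph1 on 4 or 5 each.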
